A study of Homo sapiens with 21 samples.

Results

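The cytosolic ribosomal protein genes encode the proteins that, with ribosomal RNA, build the small and the large subunit of the ribosome in the cytoplasm. They were taken by name from the protein-coding rows of the count table on chromosomes 1 to 22 and X: 83 of 66738 gene rows, of which 45 encode large subunit proteins, 31 small subunit proteins and 7 paralogs of core genes. FAU, a ribosomal protein gene without such a name, is given apart.

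The cells were RS4;11, an established line of human B-cell precursor acute lymphoblastic leukaemia with a KMT2A-AFF1 fusion. They were kept for 24 h in 1 of 3 media: without asparagine but with iron, as ferric nitrate at 10 µM, given together with the iron-binding tropolone hinokitiol at 0.75 µM (-Asn+Fe), without asparagine (-Asn), or in complete medium (+Asn). Each medium has 3 RNA-seq libraries and 3 libraries of chromatin immunoprecipitation for H3K4me3, the histone mark of active gene starts. All groups are the same single cell line, -Asn+Fe differs from -Asn by both added agents at once, and nothing in the labels says whether replicates were separate cultures, so p-values measure the spread between libraries only.

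Ribosomal protein genes are among the most strongly transcribed genes of a growing cell. Most of their messages begin with a C followed by a run of C and T, the terminal oligopyrimidine (TOP) sequence, through which LARP1 and the amino acid sensing kinase complex mTORC1 control translation. That control acts on the loading of ribosomes, which counts of whole-cell RNA do not measure. In B-cell leukaemia, asparagine is removed therapeutically by asparaginase. The proteins RPL5 and RPL11, and RPS27L among the paralogs, are also known from the p53 pathway, in which they bind MDM2.

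The starts of 10 members that the results turn on are shown as DNA, from 60 bases before the RefSeq start to the first 20 transcribed bases (RefSeq promoter table, GRCh38.p14). They show the 3 pairs of core gene and paralog, members that stood higher without asparagine, 1 with a narrowed histone mark, and the member that stood lowest. Capitals mark the start base and, where it is a C, the unbroken run of C and T that begins there.
RPS27: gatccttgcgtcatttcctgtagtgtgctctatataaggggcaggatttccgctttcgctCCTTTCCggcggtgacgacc
RPS27L: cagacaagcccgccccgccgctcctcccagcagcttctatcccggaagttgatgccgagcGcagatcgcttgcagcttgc
RPL26: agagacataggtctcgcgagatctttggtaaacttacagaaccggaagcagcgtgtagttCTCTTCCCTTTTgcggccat
RPL26L1: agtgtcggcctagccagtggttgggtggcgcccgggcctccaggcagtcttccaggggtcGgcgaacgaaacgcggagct
RPL22: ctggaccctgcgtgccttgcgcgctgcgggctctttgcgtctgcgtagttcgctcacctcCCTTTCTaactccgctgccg
RPL22L1: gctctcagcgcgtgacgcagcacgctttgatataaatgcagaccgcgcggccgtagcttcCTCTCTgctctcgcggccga
RPS12: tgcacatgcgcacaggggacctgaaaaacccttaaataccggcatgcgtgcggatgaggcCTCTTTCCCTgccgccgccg
RPL12: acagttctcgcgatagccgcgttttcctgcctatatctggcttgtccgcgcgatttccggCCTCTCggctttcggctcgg
RPL39: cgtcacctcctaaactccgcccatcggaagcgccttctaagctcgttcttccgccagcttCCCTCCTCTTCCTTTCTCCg
RPS26: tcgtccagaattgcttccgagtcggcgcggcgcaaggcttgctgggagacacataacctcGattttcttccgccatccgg
They lie at RPS27 chr1:153990702-153990781 (+), RPS27L chr15:63157458-63157537 (-), RPL26 chr17:8383174-8383253 (-), RPL26L1 chr5:172958669-172958748 (+), RPL22 chr1:6199576-6199655 (-), RPL22L1 chr3:170870176-170870255 (-), RPS12 chr6:132814509-132814588 (+), RPL12 chr9:127451387-127451466 (-), RPL39 chrX:119791611-119791690 (-) and RPS26 chr12:56041858-56041937 (+). The core genes RPS27, RPL26 and RPL22 begin with the run. Of their paralogs, RPL22L1 begins with it too, while RPS27L and RPL26L1 begin with a G, as does RPS26.

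Of the 83 members, 66 had an entry in the promoter table, and 47 of them (71.2%) had at least 1 listed start with C followed by 4 or more C or T, against 5.14% of all 27305 genes in the table. Windows of 300 bases held TATAA, read on the gene's strand and lying 40 to 20 bases before the start, in 13.6% of the members and 4.78% of all genes. The 7 letters CCGGAAG, or CTTCCGG on the other strand, the core bound by ETS factors, were in the window of 36.4% of the members and 12.2% of all genes. AAGATGG or CCATCTT, a YY1 core, was in 13.6% against 7.11%, ACTACAA or TTGTAGT, part of a ZNF143 motif, in 4.55% against 3.43%, and the palindromic E-box CACGTG in 7.58% against 8.77%. No motif searched holds another, and a match describes letters, not binding. Among the 5 paralogs with an entry, 1 had the pyrimidine start, against 28 of 37 large subunit and 18 of 24 small subunit members.

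The RNA libraries held 29362707 to 42478518 counts each. Gene levels are CPM, counts relative to the library's sum, scaled with TMM factors. A member is called higher or lower where the Benjamini-Hochberg adjusted p of edgeR's quasi-likelihood test, fitted over all 17939 genes tested, is under 0.05. Markers of precursor B cells stood at 27.8 to 1311 mean CPM in every medium, while T-cell and erythroid markers were at most 0.0493 and 0.0406 and myeloid markers at most 1.31. Of the members, 79 were tested and 74 had a mean of at least 10 CPM. RPL10L had 0 counts in all 9 libraries, and among the others not tested RPL3L and RPL39L had means of 0.0445 and 0.0150 CPM. RPL3L and RPL10L are known as paralogs of striated muscle and testis.

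Some core genes were nearly empty rows of the table. Members that also have rows of the same name on alternate contigs, among them RPL7A, RPS18, RPS25 and RPS9, had means of at most 6.35 CPM, while the 64 core members with neither such rows nor a coding gene over them on the same strand had at least 126 CPM. RPS10, RPL36A and RPL17, which read-through genes overlap, averaged 4.03, 21.7 and 36.04 CPM. H3K4me3 regions lay at the starts of RPL7A, RPS18, RPS25, RPS9 and RPS10 in all 9 ChIP libraries. How reads shared by several places or genes were counted is not given in the sources used here, and its part in the low rows was not tested.

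Per kilobase of exon, the members with a mean of at least 10 CPM spanned from 5.26 CPM per kb for RPL36A to 1002 for RPS12 in -Asn cells, and from 3.45 for RPS27L to 827 for RPS2 in +Asn cells. These lengths sum every annotated exon, so a long rare isoform lowers a gene's level, as for RPS29, whose exons sum to 9845 bases and which stood at 15.7 CPM per kb in -Asn and 10.4 in +Asn cells. Of the paralogs, RPS27L and RPL26L1 stood well below their core genes. RPS27L had 10.9, 8.0 and 3.45 CPM per kb in -Asn+Fe, -Asn and +Asn cells, against 766, 883 and 553 for RPS27. RPL26L1 had 23.9, 32.7 and 20.5, against 85.6, 113 and 78.5 for RPL26. RPL22L1 stood at 69.3, 86.4 and 57.8, above the 53.5, 57.9 and 56.5 of RPL22.

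One library stands apart. In -Asn replicate 1, 73 of the 74 members with at least 10 CPM were higher than in both other -Asn libraries, by a median of 1.33-fold, against 1.01-fold over the 8891 genes of that level. Members took 5.70%, 6.40% and 5.75% of all counts in the -Asn+Fe libraries, 7.61%, 5.97% and 5.74% in the -Asn libraries and 5.23%, 4.62% and 4.74% in the +Asn libraries. Every library without asparagine lay above every +Asn library, and the -Asn+Fe and -Asn libraries overlapped. These shares are of raw library totals and, unlike the CPM, use no TMM factors. The factors were 0.888 to 0.912 in the +Asn libraries and 1.02 to 1.09 in those without asparagine. The share averaged 5.95% ± 0.391 in -Asn+Fe, 6.44% ± 1.02 in -Asn and 4.86% ± 0.323 in +Asn libraries (SD, n = 3 each). Exact two-sided permutation p was 0.1 for -Asn and for -Asn+Fe against +Asn, the smallest 3 against 3 can give, and 0.6 between -Asn+Fe and -Asn. Without -Asn replicate 1 the last difference turned from -0.492 to 0.0955 percentage points. In bulk libraries, a change per cell and a change in which cells are present cannot be told apart.

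**Figure D1:**
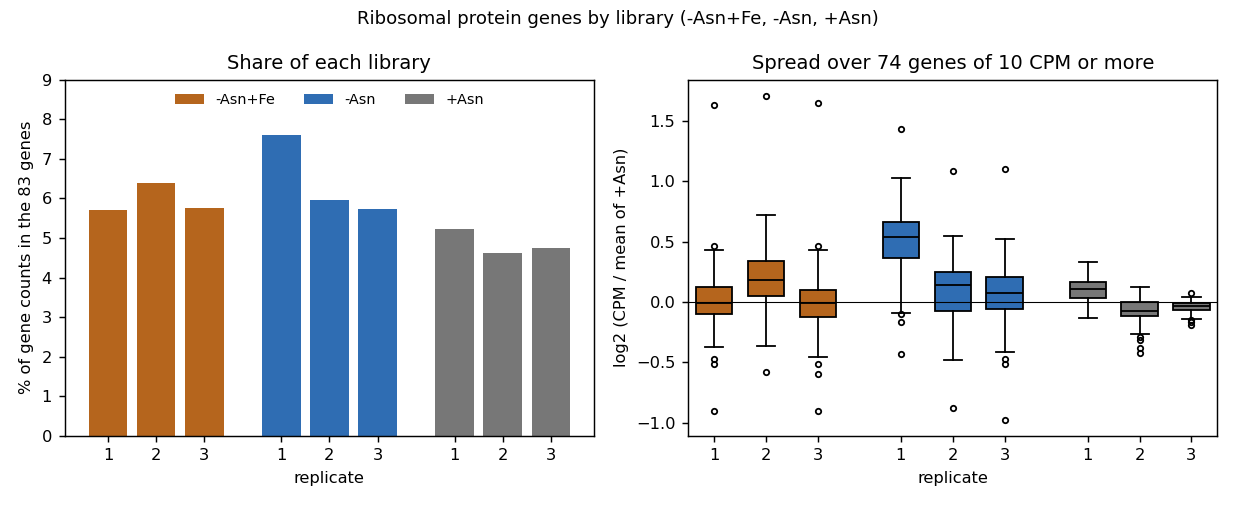
Left: percentage of each RNA library's gene counts in the 83 members (bars, by medium and replicate). Right: box plots over the 74 members with a mean of at least 10 CPM of log2 CPM relative to the +Asn mean (box, quartiles; line, median; whiskers, 1.5 interquartile ranges; circles, genes beyond). The first -Asn library is the highest, with a share of 7.61% and a median of 0.54, and the other 2 -Asn libraries have medians of 0.14 and 0.08. The 8891 genes of that level had medians of -0.15 to -0.21 in the 6 libraries without asparagine.

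Without asparagine, more members stood higher than lower. Against +Asn, 36 of the 79 tested were called higher in -Asn cells and 5 lower, 51.9% in all, against 61.2% of all genes tested, 31.0% higher and 30.2% lower. The members' median log2 fold change was 0.26, that of all genes 0.04. The changes were small: outside RPS27L, none exceeded 0.68 or fell below -0.74. Of the large subunit genes, 22 of 45 were called higher and 4 lower (median 0.26), and of the small subunit genes 11 of 30 higher and 1 lower (median 0.25). The groups did not overlap for 32 members, 40.5%, against 65.5% of all genes.

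The count of higher members rests in part on single libraries, among them the one that stands apart, and on the scaling. Without -Asn replicate 1, 22 of the 79 were called higher, all among the 36, and 13 lower, with a median of 0.10. Of all 18563 genes tested in that fit, 5534 were called higher and 5636 lower, with a median of 0.04. The higher members then no longer exceeded the share over all genes. Without +Asn replicate 2, 18 of the 79 were called higher, beside 4927 of all 18654 genes tested. Without +Asn replicate 3, 20 were, beside 4855 of 18665. In these fits too, the higher members did not exceed the share over all genes. Without -Asn replicate 2 or 3, 2 were called lower. Upper-quartile factors gave 56 higher and 1 lower and library totals 59 and 1, but these scalings also moved the median of all genes by 0.16 and 0.21 on the log2 scale. The stricter low-count filter gave 49 higher and 1 lower with a shift of 0.12, and a fold minimum of 1.2 gave 9 and 1. Scaling every library to the members' own summed counts, an alternative added after seeing the data, gave 8 higher and 8 lower. That scaling removes any change common to the members by construction, so its counts cannot show whether the members rose together. Under all 19 alternatives 6 members kept their call as higher, RPS27L, RPS27, RPL26L1, RPL22L1, RPL12 and RPL37, and 1 as lower, RPS26.

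**Figure D2:**
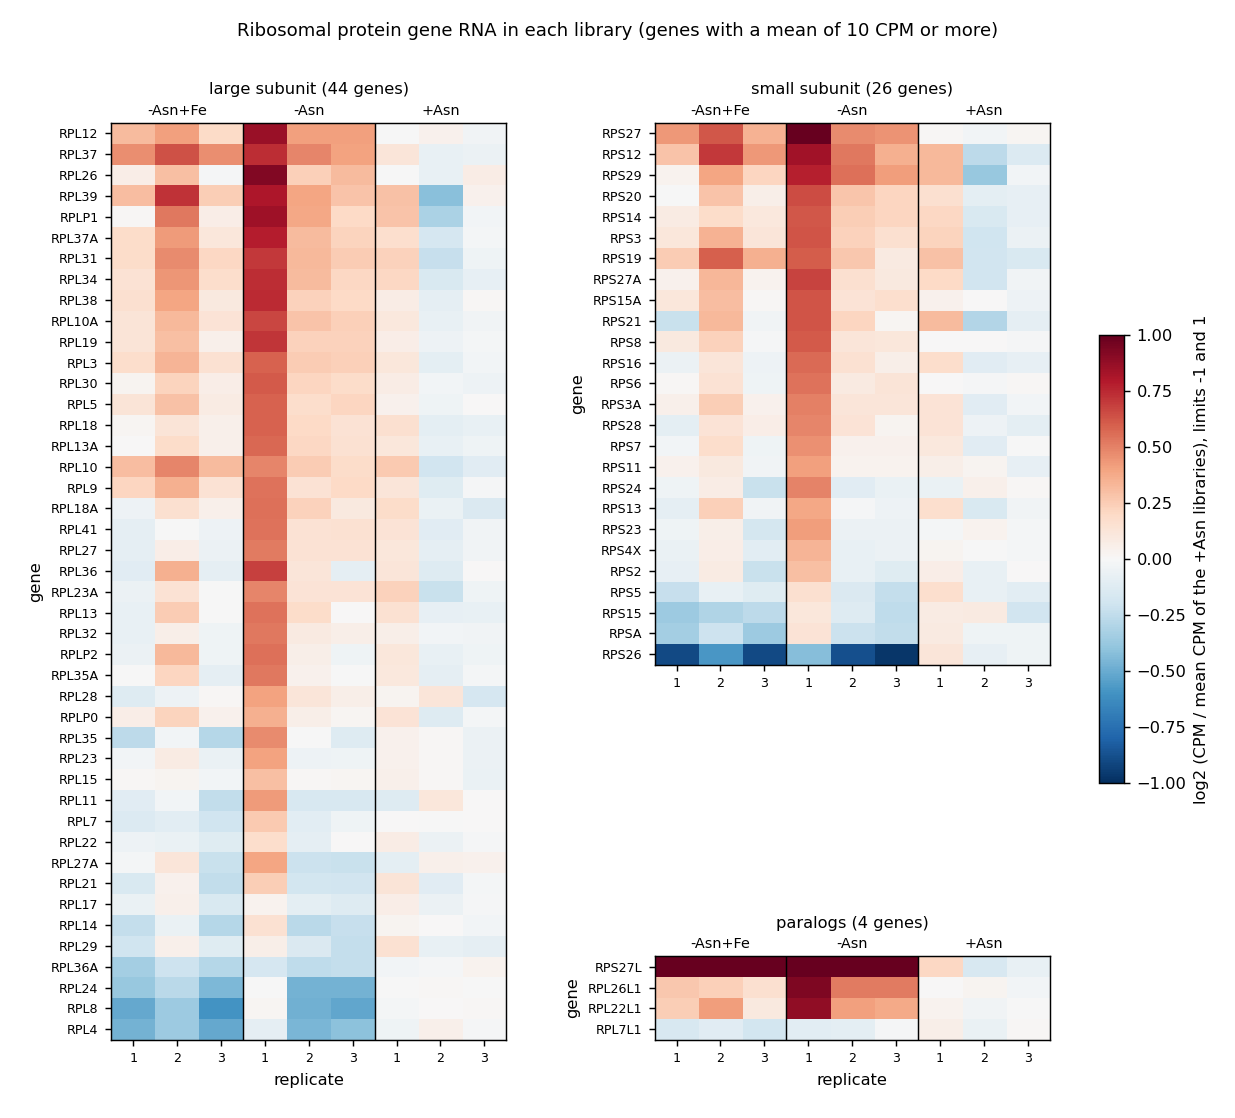
Heat map of log2 CPM relative to the +Asn mean for the 74 members with a mean of at least 10 CPM (rows, ordered within each class by the -Asn against +Asn fold change) in the 9 RNA libraries (columns). The first -Asn library is red for most rows. RPS27L at the top of the paralogs is red in all 6 libraries without asparagine, and RPS26, RPL4, RPL8 and RPL24 are blue in most of them.

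Of the 4 tested paralogs 3 were called higher in -Asn than in +Asn cells and 0 lower with edgeR, also at an unadjusted p under 0.05 (median log2 fold change 0.63). RPS27L, a paralog of the zinc-binding small subunit protein RPS27 and a known p53 target gene, had 94.4, 99.4 and 95.2 CPM in the -Asn+Fe libraries, 82.2, 64.5 and 65.2 CPM in the -Asn libraries and 35.2, 27.2 and 28.97 CPM in the +Asn libraries. The 3 groups did not overlap, and the gene was 2.32-fold higher in -Asn than in +Asn cells (log2 fold change 1.21 ± 0.10 (SE), adjusted p = 2.84e-08). The log2 fold change was 1.09, adjusted p = 9.14e-11 without -Asn replicate 1. RPS27 itself had 766, 873 and 725 CPM in the -Asn+Fe libraries, 1155, 790.2 and 777 CPM in the -Asn libraries and 572, 558 and 576 CPM in the +Asn libraries. It was higher in -Asn than in +Asn cells (log2 fold change 0.68 ± 0.13 (SE), adjusted p = 2.64e-04), and the first -Asn library was far above the other 2. Without it the log2 fold change was 0.46, adjusted p = 3.66e-07.

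RPL26L1 encodes a near copy of the large subunit protein RPL26, which is known to bind p53 messages. It had 28.7, 28.1 and 26.7 CPM in the -Asn+Fe libraries, 45.6, 34.2 and 34.3 CPM in the -Asn libraries and 23.9, 24.3 and 23.4 CPM in the +Asn libraries. All -Asn libraries were above all others (log2 fold change 0.67 ± 0.10 (SE), adjusted p = 2.03e-05 against +Asn). The core gene RPL26 had 204, 239.6 and 193 CPM in the -Asn+Fe libraries, 369.9, 229 and 241 CPM in the -Asn libraries and 194, 185 and 205 CPM in the +Asn libraries, again highest in the first -Asn library (log2 fold change 0.53 ± 0.14 (SE), adjusted p = 0.00486 against +Asn). RPL22L1, which can replace RPL22 on the ribosome, had 141, 159 and 127 CPM in the -Asn+Fe libraries, 219, 158 and 155 CPM in the -Asn libraries and 122, 116 and 118 CPM in the +Asn libraries. It was higher in -Asn than in +Asn cells (log2 fold change 0.58 ± 0.12 (SE), adjusted p = 5.07e-04), and RPL22, at 249.6, 270.1 and 264 mean CPM in -Asn+Fe, -Asn and +Asn cells, was not called (0.04 with an adjusted p of 0.707). RPL7L1, a paralog of RPL7 that takes part in ribosome assembly in the nucleolus, was not called either (-0.07 with an adjusted p of 0.358).

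A paralog's part of its pair does not depend on how libraries are scaled. RPS27L made up 10.97, 10.2 and 11.6% in the -Asn+Fe libraries, 6.64, 7.55 and 7.74% in the -Asn libraries and 5.80, 4.65 and 4.79% in the +Asn libraries of the counts of RPS27L and RPS27 together. All 3 groups were apart, and each pair of groups reached the smallest exact permutation p possible, 0.1. RPL22L1 made up 35.6, 38.7 and 34.4% in the -Asn+Fe libraries, 42.4, 38.9 and 36.9% in the -Asn libraries and 30.5, 31.5 and 31.2% in the +Asn libraries of its pair. Both groups without asparagine lay above +Asn (exact permutation p = 0.1, two-sided) but overlapped each other (exact permutation p = 0.2). For RPL26L1 the part averaged 11.7%, 12.1% and 11.0% in -Asn+Fe, -Asn and +Asn libraries, and for RPL7L1 12.03%, 11.4% and 12.1%, with overlapping groups.

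Among core genes that rose in -Asn cells, RPL12, a protein at the base of the stalk that engages translation factors, had 824, 879 and 755 CPM in the -Asn+Fe libraries, 1203, 879 and 877 CPM in the -Asn libraries and 658, 681 and 645 CPM in the +Asn libraries (log2 fold change 0.58 ± 0.11 (SE), adjusted p = 1.60e-04 in -Asn against +Asn). All -Asn libraries were above all +Asn libraries, and without -Asn replicate 1 the log2 fold change was 0.41, adjusted p = 8.62e-07. RPL37, a zinc-binding large subunit protein, had 585, 659 and 585 CPM in the -Asn+Fe libraries, 707, 595 and 560.2 CPM in the -Asn libraries and 462, 403 and 408 CPM in the +Asn libraries (log2 fold change 0.55 ± 0.09 (SE), adjusted p = 5.96e-05 in -Asn against +Asn). Every library without asparagine lay above every +Asn library. RPS12 and RPS29, both small subunit proteins, were higher by 0.59 ± 0.15 and 0.59 ± 0.14 (log2, SE), with adjusted p of 0.00343 and 0.00241. Both lost the call without -Asn replicate 1, at adjusted p of 0.134 and 0.109.

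RPS26 went the other way. This small subunit protein sits at the exit of the message channel and is delivered to the ribosome by the chaperone TSR2. Its gene had 127, 159 and 127 CPM in the -Asn+Fe libraries, 177, 129 and 121 CPM in the -Asn libraries and 258, 225 and 230.4 CPM in the +Asn libraries. Both groups without asparagine lay below +Asn with no overlap, and the gene stood at 0.598 of the +Asn level in -Asn cells (log2 fold change -0.74 ± 0.13 (SE), adjusted p = 1.12e-04). It was -0.93, adjusted p = 1.37e-07 without -Asn replicate 1. As a part of the members' summed counts, which no scaling of libraries can move, RPS26 took 0.237, 0.263 and 0.241% in the -Asn+Fe libraries, 0.236, 0.228 and 0.218% in the -Asn libraries and 0.450, 0.431 and 0.435% in the +Asn libraries. Within each medium these values lay close together, the first -Asn library included.

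Also lower were RPL4, which lines the exit tunnel of the large subunit, RPL24, which bridges the subunits, and RPL36A. The row of RPL36A is among the low ones that read-through genes overlap. RPL4 had 1376, 1485 and 1342 CPM in the -Asn+Fe libraries, 1799.9, 1394 and 1439 CPM in the -Asn libraries and 1859, 1983 and 1896 CPM in the +Asn libraries (log2 fold change -0.31 ± 0.09 (SE), adjusted p = 0.00832 in -Asn against +Asn). Its part of the members' counts was 2.57, 2.46 and 2.55% in the -Asn+Fe libraries, 2.41, 2.47 and 2.60% in the -Asn libraries and 3.24, 3.81 and 3.58% in the +Asn libraries, and both groups without asparagine were below every +Asn library. In RPL24 the first -Asn library, at 545 CPM, nearly met the lowest +Asn library, at 546 CPM. The log2 fold changes of RPL24 and RPL36A were -0.30 with an adjusted p of 0.0195 and -0.22 with an adjusted p of 0.0221. RPL8, a protein near the catalytic centre, was the fifth gene called lower (-0.31 with an adjusted p of 0.0308), with its first -Asn library, at 1583 CPM, above all 3 +Asn libraries. RPL4, RPL24, RPL36A and RPL8 lost their calls with upper-quartile factors, library totals, the stricter filter and the fold minimum, with values still below 0. Without -Asn replicate 2 or 3, RPL24, RPL36A and RPL8 lost theirs and RPL4 kept its call. RPL4 shares its place with ZWILCH on the other strand. In all, 25 members overlap a coding gene on the other strand. Without a known strand setting, reads of such pairs cannot be told apart where they overlap.

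**Figure D3:**
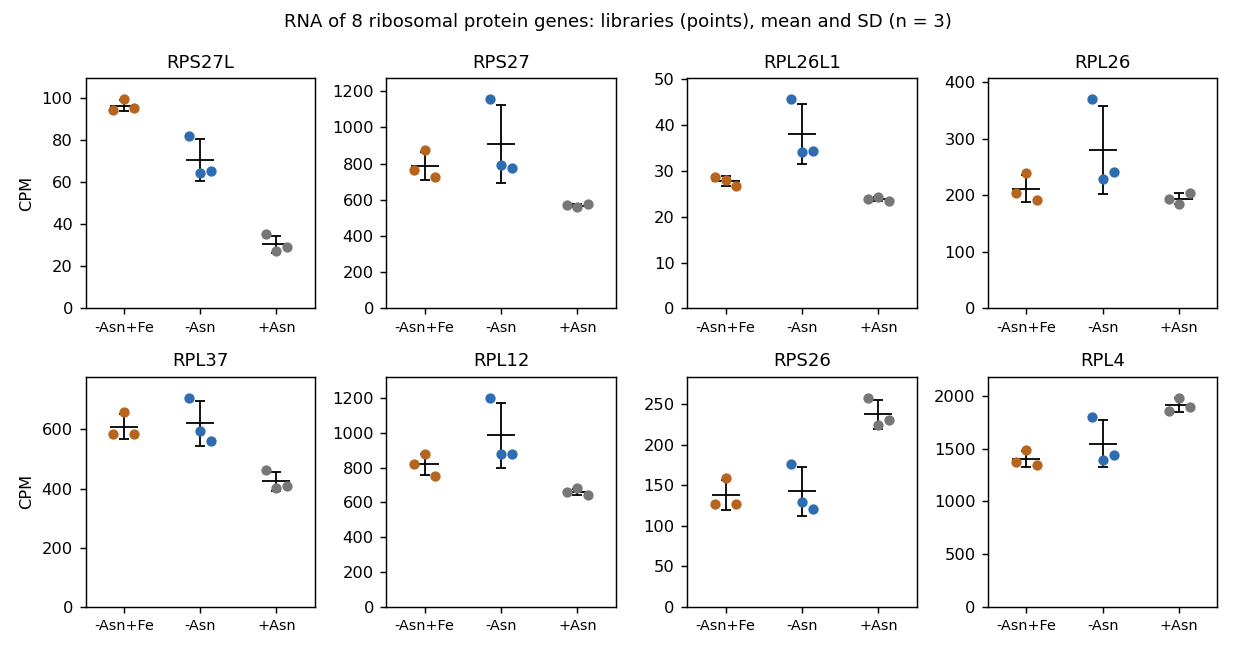
CPM of 8 members in each library (points) by medium, with mean and SD (n = 3, black). RPS27L is highest in -Asn+Fe, RPL26L1 in -Asn, and RPS26 and RPL4 in +Asn. In all 8 panels the first -Asn library is the highest point of its group.

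Of the fixed groups of members, the stalk proteins RPLP0, RPLP1 and RPLP2 had log2 fold changes of 0.15, 0.50 and 0.21 in -Asn against +Asn cells. Only RPLP1 was called (adjusted p = 0.0214), with overlapping groups, and not without -Asn replicate 1 (adjusted p = 0.340). RPL5, which with RPL11 and 5S ribosomal RNA forms the particle that can bind MDM2, was called higher (log2 fold change 0.34 ± 0.10 (SE), adjusted p = 0.00772) and RPL11 was not (0.06 with an adjusted p of 0.705). RPL11 was called lower without -Asn replicate 1, at -0.16, adjusted p = 0.0353. Of the 8 tested Diamond-Blackfan anaemia genes, members whose loss in people impairs red cell formation, 2 were called higher, RPS19 (0.34 with an adjusted p of 0.0487) and RPL5, and 1 lower, RPS26 (median 0.16). RPS19 lost its call under 10 of the 19 alternatives, and without -Asn replicate 1 it stood at 0.18, adjusted p = 0.438. RPS6, the target of the S6 kinases below mTORC1, and RPS3, at the message entry of the small subunit, were higher by 0.27 and 0.36 (adjusted p of 0.0338 and 0.0242). Neither was called without -Asn replicate 1, at 0.11 and 0.19 (adjusted p of 0.0882 and 0.177). RPL3, next to the catalytic centre, was higher by 0.37 (adjusted p = 0.00379), as were RPL10, which joins the subunit late (0.32, adjusted p = 0.0219), and RPL39, in the exit tunnel (0.51, adjusted p = 0.0162). RPL3 kept its call without that library, and RPL10 and RPL39 did not (adjusted p of 0.00153, 0.184 and 0.292). RPSA, RPL7, RPS4X and the ubiquitin fusion RPS27A were not called, at -0.10, 0.05, 0.08 and 0.33 (adjusted p of 0.389, 0.678, 0.487 and 0.0510). RPS27A was called higher under 9 of the 19 alternatives, but not without -Asn replicate 1 (adjusted p = 0.403). Without that library RPSA was called lower, at -0.23, adjusted p = 9.79e-04. FAU, outside the name pattern, was not called, at 0.08.

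Of the members grouped by their start, 20 of 47 with the pyrimidine start were called higher and 2 lower (median 0.27), and 9 of 18 tested members without it higher and 2 lower (median 0.24). The difference was not tested. Both groups rest on the listed RefSeq starts alone, and a start listed a few bases off would miss the run. They are therefore not groups of TOP and other messages. Of 17 tested messages of other translation genes known to begin with a TOP sequence, 4 were called higher and 2 lower (median 0.05). EEF2, the translocation factor, had 4258, 4481 and 4222 CPM in the -Asn+Fe libraries, 5279, 4603 and 4461 CPM in the -Asn libraries and 3046, 2891 and 2906 CPM in the +Asn libraries (0.70 with an adjusted p of 1.50e-06, log2). TPT1 and RACK1, a protein of the small subunit, were higher by 0.62 and 0.38 (adjusted p of 1.57e-04 and 0.00195). HNRNPA1 was lower at -0.34 with an adjusted p of 0.00277. EEF1D was also called higher, at 1.298 with an adjusted p of 1.76e-05, but its row held at most 6.27 CPM in any library. The 4 called higher therefore include a nearly empty row. EEF1B2, tested and not called, held at most 0.507 CPM, and EEF1G, not tested, had 0 CPM in every library. The cause of these low rows was not tested.

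The companion lists are read against the 31.0% of all genes called higher and the 30.2% called lower in -Asn cells. Of 8 chaperones that carry ribosomal proteins to the nucleolus or ribosome, 6 were called lower in -Asn than in +Asn cells and 0 higher with edgeR, also at an unadjusted p under 0.05 (median -0.32). HEATR3, which carries RPL5 into the nucleus, had 18.00, 17.2 and 17.6 CPM in the -Asn+Fe libraries, 16.3, 16.9 and 20.01 CPM in the -Asn libraries and 44.5, 41.7 and 41.5 CPM in the +Asn libraries (-1.26 with an adjusted p of 1.85e-09). BCCIP, a chaperone of RPL23, and NLE1 were at -0.67 and -0.44 (adjusted p of 3.71e-06 and 2.54e-04). TSR2, the chaperone of RPS26, was not called in -Asn cells (0.01 with an adjusted p of 0.916). Of 8 regulators of TOP messages and of cap binding, 2 were called higher and 4 lower (median -0.20): PDCD4, an inhibitor of the helicase EIF4A, was higher at 1.16 with an adjusted p of 1.70e-10, and EIF4EBP2 and TIA1 were lower at -0.66 and -0.50. LARP1 was not called (-0.12 with an adjusted p of 0.115). Of 13 factors of ribosome stalling and rescue, 9 were called lower and 2 higher (median -0.29), with SERBP1 and CCDC124, which sit on idle ribosomes, at -0.90 and -0.73 and HABP4 at 0.60 (adjusted p of 1.70e-08, 2.54e-06 and 0.00104).

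Few members were called between the cells without asparagine that received iron with hinokitiol and those that did not. Between -Asn+Fe and -Asn cells 1 of 79 members was called higher and 5 lower, 7.59% in all, against 30.8% of all genes tested, 14.0% higher and 16.8% lower. The members' median log2 fold change was -0.17, that of all genes -0.01, and 71 of the 79 had a value below 0. The groups did not overlap for 10 members, 12.7%, against 43.2% of all genes. Without -Asn replicate 1 the median was 0.0042, with 2 called higher and 3 lower. Without -Asn replicate 2 or 3, in which replicate 1 weighs more, 14 and 18 were called lower. Without -Asn+Fe replicate 1 or 3, 1 was called lower. At an unadjusted p under 0.05, 1 member was higher and 21 lower, and DESeq2 called 1 higher and 8 lower.

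The gene called higher was RPS27L, at 1.36 times the -Asn level in -Asn+Fe cells (log2 fold change 0.45 ± 0.10 (SE), adjusted p = 0.00283), with all -Asn+Fe libraries above all -Asn libraries. Its log2 fold change was 0.58, adjusted p = 5.62e-06 without -Asn replicate 1. Its call was lost against a fold minimum of 1.2 (adjusted p = 0.0761). RPL26L1 was lower at log2 fold change -0.45 ± 0.10 (SE), adjusted p = 0.00274, with no overlap, and without -Asn replicate 1 at -0.29, adjusted p = 0.00371. RPL41, the smallest ribosomal protein, had 300.4, 319 and 308 CPM in the -Asn+Fe libraries, 466, 354 and 355 CPM in the -Asn libraries and 351, 296 and 312 CPM in the +Asn libraries. Its -Asn+Fe libraries lay below all -Asn libraries (log2 fold change -0.34 ± 0.10 (SE), adjusted p = 0.0146) and among the +Asn libraries. RPL27 and RPL28 were lower at -0.30 with an adjusted p of 0.0234 and -0.26 with an adjusted p of 0.0468, and RPL26 at -0.40 with an adjusted p of 0.0442 with overlapping groups. Without -Asn replicate 1, RPL27 and RPL41 were called still, RPL26 and RPL28 not (adjusted p of 0.130 and 0.130). Of the 19 alternatives, RPL41 kept its call under 15, RPL27 under 12, RPL26 under 9 and RPL28 under 4. With libraries scaled to the members' summed counts 0 members were called lower, 1 at an unadjusted p under 0.05. Such scaling removes any change common to the members by construction.

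RPS26 and RPL37 were not called between -Asn+Fe and -Asn (-0.05 and -0.03, adjusted p of 0.806 and 0.861). Outside the name pattern, FAU was not called (-0.19 with an adjusted p of 0.302). Among the companion genes, PELO, which rescues stalled ribosomes, was higher in -Asn+Fe cells, with 33.02, 32.3 and 32.3 CPM in the -Asn+Fe libraries, 20.8, 16.9 and 18.9 CPM in the -Asn libraries and 20.7, 18.3 and 20.2 CPM in the +Asn libraries (0.79 with an adjusted p of 4.38e-06, log2). ASCC3, a helicase that splits collided ribosomes, was higher at 0.65 with an adjusted p of 8.48e-05 and CCDC124 lower at -0.63 with an adjusted p of 8.53e-05. Of the 8 chaperones 3 were called lower, TSR2 (-0.35, adjusted p = 0.00534), GRWD1 (-0.28, adjusted p = 0.00639) and BCCIP (-0.27, adjusted p = 0.0246), and 0 higher, also unadjusted, beside 16.8% of all genes called lower and 14.0% higher. PDCD4 was higher again (0.31 with an adjusted p of 0.00159).

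Against +Asn, -Asn+Fe cells had 9 of 79 members called higher and 8 lower, 21.5%, against 64.7% of all genes tested, 32.9% higher and 31.9% lower. This comparison shares its +Asn libraries with that of -Asn and its -Asn+Fe libraries with the one before, so the 3 are not independent. The members' median was 0.05, as was that of all genes tested at any level. Relative to the +Asn mean, the 74 members of at least 10 CPM had log2 medians of -0.01, 0.18 and -0.01 in the -Asn+Fe libraries. Over all 8891 genes of that level the medians were -0.19, -0.18 and -0.21. Without +Asn replicate 2 or 3, 4 and 3 were called higher, and without -Asn+Fe replicate 2, 4. Without +Asn replicate 1, 15 were called higher and 5 lower. With -Asn replicate 1 left out of the joint fit, 18 were called higher and 11 lower. Upper-quartile factors gave 40 higher and 3 lower, library totals 51 and 1, and the stricter filter 29 and 3, with shifts of the median of all genes of 0.21, 0.25 and 0.17. RPS27L stood 3.16-fold higher (log2 fold change 1.66 ± 0.10 (SE), adjusted p = 4.36e-10). Among members whose groups did not overlap, RPL37 followed at log2 fold change 0.52 ± 0.09 (SE), adjusted p = 8.58e-05, then RPS27 (0.47 with an adjusted p of 0.00406), RPL10 (0.37 with an adjusted p of 0.00798), RPL12 (0.31 with an adjusted p of 0.0167) and RPL9 (0.24 with an adjusted p of 0.0455). The other 3 called higher, RPS12 (0.48 with an adjusted p of 0.0113), RPL39 (0.44 with an adjusted p of 0.0328) and RPS19 (0.41 with an adjusted p of 0.0188), had overlapping groups, and without -Asn replicate 1 their adjusted p was 0.0708, 0.127 and 0.0641. RPL26L1 and RPL22L1 were not called (0.22 with an adjusted p of 0.0651, and 0.26 with an adjusted p of 0.0611), although all -Asn+Fe libraries lay above all +Asn libraries for both. With -Asn replicate 1 left out of the fit both were called higher, at 0.23 and 0.27 (adjusted p of 0.00390 and 3.31e-04).

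The lower members were led by RPS26, at 0.579 of the +Asn level (log2 fold change -0.79 ± 0.13 (SE), adjusted p = 5.57e-05), RPL8 (-0.49 with an adjusted p of 0.00156), RPL4 (-0.45 with an adjusted p of 4.35e-04) and RPL24 (-0.36 with an adjusted p of 0.00576). RPS15, next to the decoding site (-0.31 with an adjusted p of 0.00916), RPSA, also known as the laminin receptor (-0.30 with an adjusted p of 0.0114), RPL36A (-0.28 with an adjusted p of 0.00516) and RPL7L1 (-0.15 with an adjusted p of 0.0493) completed the 8, all with groups that did not overlap. RPL7L1 turned to 0.10 on library totals, 0.06 with upper-quartile factors and 0.02 with the stricter filter, so its direction depends on the scaling. RPS27L, RPL37, RPS27 and RPS26 kept their calls under all 19 alternatives. Of the 8 chaperones all 8 were called lower (median -0.54), beside 31.9% of all genes.

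H3K4me3 was read as the length of DNA covered by the authors' peak calls in each library, since the deposited table gives peak positions and no heights. A region was assigned to a member where it lay within 1 kb of the gene's outer start. By this rule 74 members had 75 regions, 74 of them called in all 9 libraries, and 3 more members had a region at their RefSeq start. RPL24 and RPL22L1 had none by either start although their RNA averaged 473 and 146 CPM, and the other members without one, RPL3L, RPL10L and RPL39L among them, were not tested for RNA. Member regions covered a median of 2428 bp, against 1718 bp over the 13883 regions called in all libraries. In 22 of the 75 the outer start of another coding gene lay inside.

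In -Asn against +Asn cells 3 of the 74 member regions were called wider (4.05%) and 7 narrower (9.46%), against 14.6% and 1.45% of all regions, 16.1% in either direction (limma on log2 covered length, adjusted p under 0.05). The members' median log2 change was -0.02, that of all regions 0.09. Centred on library medians, 3 were wider and 21 narrower. Without +Asn replicate 2 or 3, or -Asn replicate 2 or 3, 1 was called wider, and without -Asn replicate 1, 6. Widened starts were those of RPL26L1, RPS27L and RPS19, 3 genes whose RNA was also called higher, RPS19 not without RNA library -Asn replicate 1. The region at RPL26L1 (chr5:172958016-172960284, hg38) covered 1983, 1739 and 1890 bp in the -Asn+Fe libraries, 2005, 2242 and 1988 bp in the -Asn libraries and 1668, 1702 and 1724 bp in the +Asn libraries (log2 0.29 ± 0.06 (SE), adjusted p = 0.0142). All -Asn libraries were wider than all others. The region at RPS27L (chr15:63155630-63158519) covered 2661, 2813 and 2757 bp in the -Asn+Fe libraries, 2387, 2857 and 2604 bp in the -Asn libraries and 2269, 2152 and 2093 bp in the +Asn libraries (0.27 ± 0.06 (SE), adjusted p = 0.0189). Both groups without asparagine were wider than every +Asn library, and the downstream edge lay at 1779, 1662 and 1251 bp on average in -Asn+Fe, -Asn and +Asn cells. At RPS19 (chr19:41859243-41861795) it covered 2024, 1896 and 2028 bp in the -Asn+Fe libraries, 2191, 2553 and 2380 bp in the -Asn libraries and 2122, 1942 and 1959 bp in the +Asn libraries (0.24 ± 0.06 (SE), adjusted p = 0.0284 in -Asn against +Asn). All -Asn libraries were wider than all others, and the -Asn+Fe libraries overlapped those of +Asn. The difference between -Asn+Fe and -Asn did not pass the threshold (-0.26 ± 0.06 (SE), adjusted p = 0.425).

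Narrowed starts were those of RPS3, RPL39, RPS3A, RPS6, RPL28, RPL35 and RPS2. At RPS3 (chr11:75399374-75401548) the covered length was 1844, 1694 and 1600 bp in the -Asn+Fe libraries, 1390, 1431 and 1487 bp in the -Asn libraries and 1917, 2117 and 1773 bp in the +Asn libraries (-0.43 ± 0.08 (SE), adjusted p = 0.00550 in -Asn against +Asn). At RPL39 (chrX:119788283-119792999) it was 3775, 3122 and 3380 bp in the -Asn+Fe libraries, 3305, 3349 and 3246 bp in the -Asn libraries and 4412, 4674 and 3968 bp in the +Asn libraries (-0.40 ± 0.07 (SE), adjusted p = 0.00652). Every library without asparagine was narrower than every +Asn library. The downstream edge lay at 2200, 2018 and 3108 bp from the start on average in -Asn+Fe, -Asn and +Asn cells, while the upstream edge lay at 1225, 1281 and 1311 bp. RPS6 (chr9:19377707-19381130), RPS3A (chr4:151098968-151101925) and RPL28 (chr19:55382929-55388173) were narrower at -0.23, -0.28 and -0.19 (adjusted p of 0.0110, 0.0333 and 0.00695). The region at RPL28 also holds the start of TMEM238, and that at RPL35 the start of ARPC5L. RNA of RPS3, RPL39, RPS3A and RPS6 was called higher with all libraries, in none of the 4 without -Asn replicate 1, and that of RPL28, RPL35 and RPS2 was not called.

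**Figure D4:**
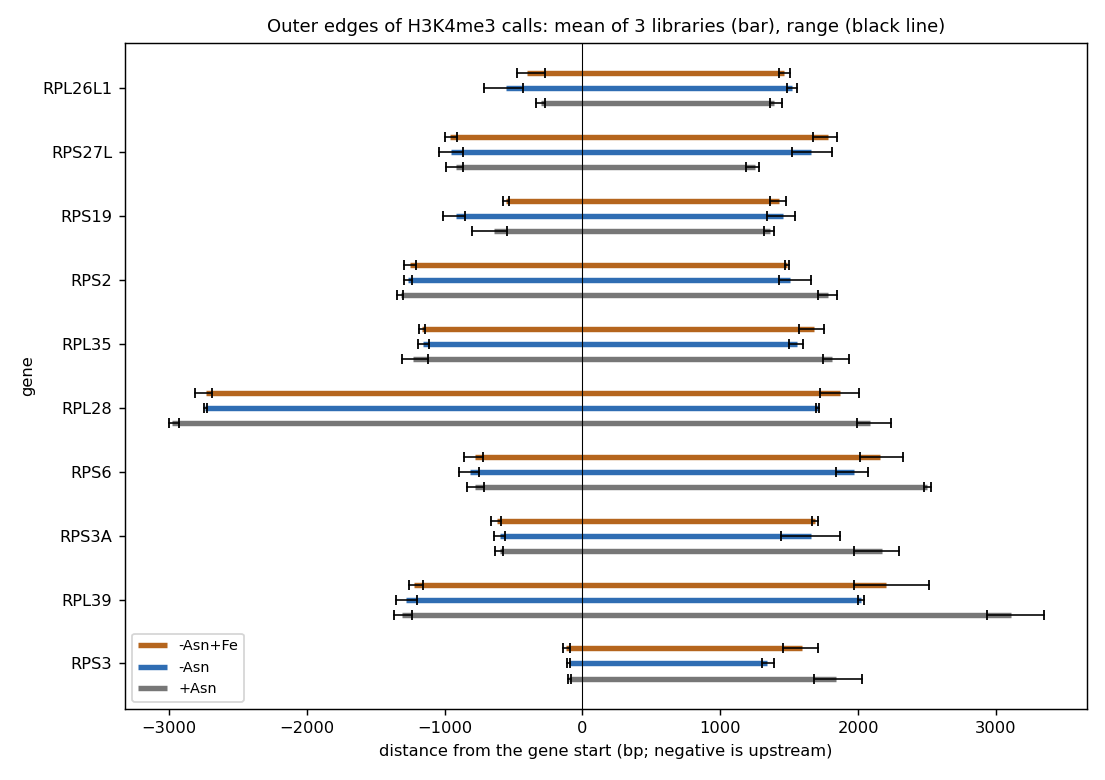
Outer edges of the H3K4me3 calls at the 10 member starts called wider or narrower in -Asn against +Asn, as distance from the gene start in bp (RefSeq start, for RPS2 the outer start of the count table). Bars run between mean edges of 3 libraries per medium and black lines give the range. At RPL39 the downstream end lies at 2200, 2018 and 3108 bp in -Asn+Fe, -Asn and +Asn, and at RPS27L at 1779, 1662 and 1251 bp.

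Between -Asn+Fe and -Asn, 0 of 74 member regions were called with limma, as of all 13883 regions (0.0%). At an unadjusted p under 0.05, 3 member regions were wider and 2 narrower. Against +Asn, -Asn+Fe cells had 2 member regions called wider, at RPS27L (0.34 ± 0.06 (SE), adjusted p = 0.00728) and RPL9 (0.16 ± 0.05 (SE), adjusted p = 0.0416), and 3 narrower, at RPL39 (-0.35 ± 0.07 (SE), adjusted p = 0.0128), RPS2 (-0.18 ± 0.05 (SE), adjusted p = 0.0310) and RPL28 (-0.14 ± 0.03 (SE), adjusted p = 0.0287). Of all regions 11.7% were wider and 1.92% narrower. Without 1 library the members' counts ran from 1 to 3 wider and 1 to 5 narrower, and centred on library medians they were 1 and 14. The region at RPL9 (chr4:39457008-39460562) also holds the start of LIAS.

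At RPS26 (chr12:56041207-56043573), whose RNA was lowest relative to +Asn, the mark covered 2088, 1981 and 2337 bp in the -Asn+Fe libraries, 1880, 2161 and 1968 bp in the -Asn libraries and 2259, 2253 and 2017 bp in the +Asn libraries. The groups overlapped, and the log2 change in -Asn against +Asn was -0.12 ± 0.08 (SE), adjusted p = 0.295. RPS27 (chr1:153990283-153992379) was wider by 0.22 without passing the threshold (adjusted p = 0.0840), and RPL12 and RPL37 stood at -0.15 and 0.13 (adjusted p of 0.117 and 0.206). Of the 35 members with a region called in all libraries and RNA called higher in -Asn cells, 3 had it wider and 4 narrower, with a median of 0.02. Of the 36 whose RNA was not called, 0 had it wider and 3 narrower, with a median of -0.02. Called widths depend on the depth of the ChIP libraries, which is not given in the sources used here, and its part was not tested.

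**Figure D5:**
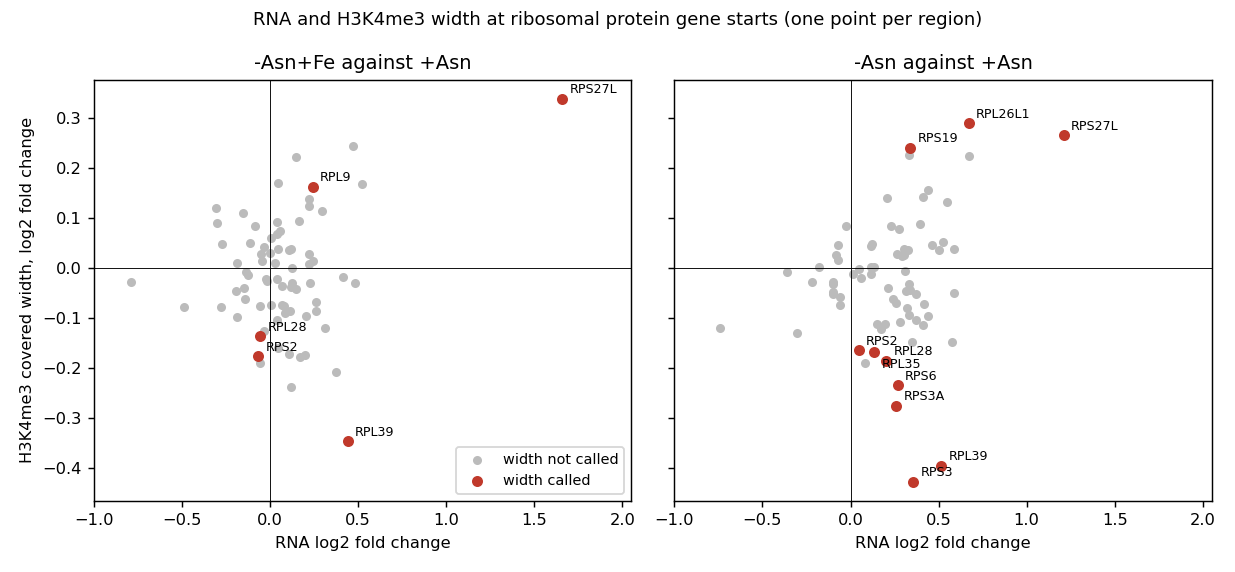
Log2 fold change of RNA (horizontal) against log2 change of H3K4me3 covered length (vertical) for the 74 member regions called in all libraries, in -Asn+Fe against +Asn (left) and -Asn against +Asn (right). Both panels use the same +Asn libraries. Red points are regions called wider or narrower. RPS27L is the point farthest right in both panels, at 1.66 and 0.34 (left) and 1.21 and 0.27 (right).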

How the data were processed

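RNA was extracted from whole cells with Trizol, per the labels' protocols. The deposited gene counts are raw. The submitters' processing notes name hg38, bcl2fastq, the aligner STAR (2.7.2a) and, for counting, featureCounts from the Subread package (1.6.5). Settings for strand and for multimapping reads were not stated in the labels or files. The deposited H3K4me3 table holds 19279 merged regions with the positions of the authors' peak calls in 9 libraries and no other values (Bowtie2, version 2.4.4, Picard, version 2.18.26, and MACS2, version 2.2.7.1, per the same notes). Neither peak thresholds nor ChIP depth were found in the labels or files, and the 3 input libraries were not used here.

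Counts of all 9 RNA libraries were fitted together with edgeR 4.0.16 (R 4.3.3; TMM factors, filterByExpr, robust quasi-likelihood test), with Benjamini-Hochberg adjustment over 17939 genes at 0.05. The biological coefficient of variation was 0.0871 with 6 residual degrees of freedom, and depth was 29362707 to 42478518 counts. CPM used TMM library sizes. The covered length of the 13883 regions called in every library was tested on the log2 scale with limma 3.58.1. Both fits were tested on simulated data with 200 genes or regions changed. That is far fewer than were called against +Asn, and the simulated width change was larger than those reported for members. These runs therefore cannot show how the calls depend on scaling, or how well small width changes are found. Shares were compared with exact permutation tests in scipy 1.17.1, and figures were drawn with matplotlib 3.10.9 (Python 3.11.15, pandas 2.3.3, numpy 2.4.6). Alternatives were DESeq2 (1.42.0), factors from RLE or the upper quartile, totals alone, other filters, a fold minimum, a fit of the compared libraries only, a replicate block and each library left out. Scaling to the members' counts and RefSeq starts were added after seeing the data.

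Named members were up to 8 per direction and comparison with the largest fold changes among those called with non-overlapping groups and a mean of at least 5 CPM, a fixed list of well-known members, FAU, and up to 3 called genes per companion list. LARP1, TSR2 in the comparison with +Asn, RPS12 and RPS29 without a library, and neighbouring genes are named for context. So are EEF1D, EEF1B2 and EEF1G, for their low rows. Members and lists were chosen with earlier results of these data known. Same-named copies on alternate contigs, 17 in all, were left out by the rule. Some genes are not reported here.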

Additional observations from a re-analysis of the deposited data

How the results depend on the processing

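For -Asn against +Asn, members called higher and lower, 36 and 5, came to 56 and 1 with upper-quartile factors, 59 and 1 with library totals, 9 and 1 against a 1.2-fold minimum and 8 and 8 when scaled to the members' counts. Scaling to the members' counts removes any change common to the members by construction. The lower count was 1 with the stricter filter and 3 with only the compared libraries. Leaving out 1 library gave 18 to 44 higher and 2 to 13 lower. For -Asn+Fe against -Asn, the 5 lower members became 8 with DESeq2, 2 with upper-quartile factors and with the stricter filter, 3 with library totals and with only the compared libraries, 29 with no low-count filter and 0 when scaled to the members' counts, and against a 1.2-fold minimum 0 were called higher and 0 lower with edgeR (1 and 1 unadjusted). Leaving out 1 library gave 1 to 2 higher and 1 to 18 lower. For -Asn+Fe against +Asn, 9 higher and 8 lower became 40 and 3, 51 and 1, 29 and 3 and 3 and 3 with upper-quartile factors, library totals, the stricter filter and the fold minimum. The higher count was 14 with no low-count filter and 15 with only the compared libraries, and leaving out 1 library gave 3 to 18 higher and 5 to 11 lower.

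Centring region widths gave 21 narrower for -Asn against +Asn, and 1 wider and 14 narrower for -Asn+Fe against +Asn. Leaving out 1 library gave 1 to 6 wider and 5 to 7 narrower, and 1 to 3 wider and 1 to 5 narrower. The difference in share between -Asn+Fe and -Asn ran from -0.842 to 0.0955 percentage points without 1 library. Of single genes, RPL11 turned to -0.16 in -Asn against +Asn without -Asn replicate 1, and its values ran up to 0.165 without another library. In -Asn+Fe against +Asn, RPL22, RPL27 and RPS4X turned to 0.18, 0.23 and 0.22 with library totals, and RPL7L1 to 0.0599, 0.103 and 0.0175 with upper-quartile factors, library totals and the stricter filter. Beyond the library or scaling named, the cause was not tested.

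Deviations of same-numbered RNA libraries from their group means correlated at -0.0806 to 0.0721. With 3 libraries per medium this cannot show whether a replicate number stands for a shared culture or day. The ChIP libraries were not checked in this way. With the number as a replicate block, 38 members were higher and 5 lower in -Asn against +Asn, 1 and 5 in -Asn+Fe against -Asn, and 11 and 7 in -Asn+Fe against +Asn. The block gave 2 wider and 6 narrower regions, 0 and 0, and 1 and 2.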

Other observations

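The introns of ribosomal protein genes host many small nucleolar RNAs, which guide the modification of ribosomal RNA. Of 60 such genes within the members' spans, 12 had enough counts to be tested. SNORD101, hosted by RPS12, averaged 0.991 ± 0.256 CPM in -Asn+Fe, 0.585 ± 0.167 in -Asn and 1.86 ± 0.310 in +Asn libraries (SD, n = 3 each). It was lower in -Asn and in -Asn+Fe than in +Asn cells, by log2 fold changes of -1.66 and -0.92 (edgeR's quasi-likelihood test, adjusted p of 5.68e-05 and 0.00532), while its host RPS12 was called higher in both, though in neither without -Asn replicate 1 (adjusted p of 0.134 and 0.0708). SNORA66, hosted by RPL5, averaged 0.578 ± 0.181 CPM in -Asn+Fe and 1.12 ± 0.0839 in +Asn libraries (SD, n = 3 each), a log2 fold change of -0.92 (edgeR, adjusted p = 0.0150). The other 10 were not called in any comparison. At about 1 CPM these are low counts, whole-cell libraries of this kind capture RNAs this short poorly, and reads of the host's introns over the same bases cannot be told apart from them.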
